A study of Homo sapiens with 15 samples.

Results

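The genes described here are 8 myosin light chain genes and MYLK3, the gene of the cardiac myosin light chain kinase, taken by symbol from a table of 60605 genes. All 9 passed the filter used for testing, which kept the 21206 genes that reached an FPKM of 1 in any of the 15 libraries. FPKM is the number of fragments counted per kilobase of exons, scaled to the total counts of the library. MYL2 passed this filter through a single library, passaged day 10.

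Each myosin motor carries a regulatory and an essential light chain on the lever arm of its heavy chain. The regulatory chains measured were MYL2, found in ventricle and slow skeletal muscle, MYL7, found in atria and in the early heart tube, MYL9, found in smooth muscle and non-muscle cells, and MYL12A and MYL12B, found in non-muscle cells. The essential chains were MYL3 of ventricle and slow skeletal muscle, MYL4 of atria and embryonic muscle, and MYL6 of smooth muscle and non-muscle cells. MYLK3 encodes a kinase that phosphorylates the regulatory light chain in cardiomyocytes. In the early heart tube MYL7 is made throughout the myocardium and later becomes restricted to the atria, while MYL2 marks the ventricle.

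RNA was sequenced in bulk from wild-type H1 cells, a human embryonic stem cell line, that had been brought to mesendoderm with CHIR99021, an activator of WNT signalling, on day 0. Days 0, 1 and 2 had 1 library each and were shared by all arms. On days 3, 5, 7 and 10 there was 1 library each of NP-ctrl cells, which were not passaged and differentiated spontaneously, of NP-IWP2 cells, which were likewise not passaged but were given IWP2, a compound that blocks WNT secretion, and of passaged cells, which were dissociated and replated on day 2 without IWP2. According to the methods of the study passaging also diluted the cells into new coated wells, with or without the ROCK inhibitor Y27632 or insulin. Its results say that Y27632 was used in every differentiation after the survival tests, which the paper reports before the RNA sequencing. Dissociation, density and medium therefore cannot be told apart in the passaged arm. The cultures are 1 cell line and 1 series of libraries, and no arm and day had a replicate.

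Total counts ran from 13254723 to 20250115 per library. The mitochondrial share of counts ran from 1.53% in passaged day 3 to 10.3% in passaged day 10. Markers of other cell types differed between the arms. On day 10 the summed FPKM of 10 cardiomyocyte markers was 394.9 in NP-ctrl cells, 1235 in NP-IWP2 cells and 3377 in passaged cells, and the summed FPKM of 8 fibroblast markers was 4528, 1271 and 123.5. In bulk RNA a change in the number of cells of a type and a change in RNA per cell cannot be told apart, and this holds for every value below.

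The upstream sequences of MYL7, MYLK3 and MYL3 are shown as those of the cardiac members that had a RefSeq entry. They are the 250 bases before a RefSeq start (GRCh38.p14), written on the gene's own strand from 5′ to 3′, and capitals mark matches to a searched motif. The MYL7 sequence is chr7:44141333-44141582 on the minus strand, the MYLK3 sequence is chr16:46748345-46748594 on the minus strand and the MYL3 sequence is chr3:46861685-46861934 on the minus strand. The MYL7 and MYLK3 starts are those of the canonical GENCODE transcript, and the MYL3 start lies 1760 bases from it.
MYL7: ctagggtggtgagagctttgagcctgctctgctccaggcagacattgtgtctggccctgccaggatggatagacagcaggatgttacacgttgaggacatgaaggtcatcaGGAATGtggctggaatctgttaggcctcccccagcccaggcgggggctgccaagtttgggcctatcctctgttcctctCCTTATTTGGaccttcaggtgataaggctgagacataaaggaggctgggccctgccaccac
MYLK3: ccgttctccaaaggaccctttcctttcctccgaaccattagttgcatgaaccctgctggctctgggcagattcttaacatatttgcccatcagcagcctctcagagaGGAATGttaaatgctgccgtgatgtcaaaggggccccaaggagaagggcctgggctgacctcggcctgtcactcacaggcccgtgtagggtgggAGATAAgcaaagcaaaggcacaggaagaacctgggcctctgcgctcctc
MYL3: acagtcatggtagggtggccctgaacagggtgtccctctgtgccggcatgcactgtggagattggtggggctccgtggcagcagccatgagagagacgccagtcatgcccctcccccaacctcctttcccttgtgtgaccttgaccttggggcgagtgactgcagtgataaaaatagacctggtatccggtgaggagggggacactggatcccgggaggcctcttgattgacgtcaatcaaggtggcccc

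The motifs searched were the CArG box bound by serum response factor, the MEF2 motif and TATAAA on the gene's strand. On both strands the GATA factor motif AGATAA was searched. The MCAT motif of TEAD factors, searched on both strands, was CATTCC. The NKX2-5 motif, also on both strands, was TGAAGTG. MYL7 held a CArG box 61 to 52 bases upstream and an MCAT match 139 to 134 bases upstream. MYLK3 held an MCAT match 143 to 138 bases upstream and a GATA match 49 to 44 bases upstream. The MYL3 window held none of the searched motifs. Other forms of the GATA motif were not searched, such as TGATAA, which occurs in the printed MYL7 and MYL3 windows. Among the windows not printed, 1 of 3 of MYL12A held a MEF2 match. Of 35116 RefSeq promoters of the same length, 1.16% held a CArG box, 11.9% the MCAT motif and 9.17% the GATA motif. These matches are descriptions of the sequence, and binding was not measured.

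MYL12A and MYL12B lie next to each other on chromosome 18 (3247481 to 3256236 and 3261479 to 3278461) and are close copies. Their coding sequences differed at 22 positions and were 95.7% identical, and 8.36% of the 50-base windows of the MYL12A transcript also occurred in MYL12B. The stretch of 150 coding bases with the most differences is shown, from coding base 109 of MYL12A and 112 of MYL12B, with the 12 differing bases in capitals.
MYL12A: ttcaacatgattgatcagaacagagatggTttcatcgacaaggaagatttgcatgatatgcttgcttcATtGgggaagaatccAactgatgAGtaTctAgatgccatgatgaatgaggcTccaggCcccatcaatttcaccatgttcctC
MYL12B: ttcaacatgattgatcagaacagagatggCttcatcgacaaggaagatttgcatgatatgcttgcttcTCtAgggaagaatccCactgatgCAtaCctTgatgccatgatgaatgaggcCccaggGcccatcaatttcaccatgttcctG

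Reads from the shared windows could have been assigned to either gene or to none, so the split between these 2 genes is uncertain. No 50-base window was shared between MYL12A or MYL12B and MYL9, between MYL2 and MYL7, between MYL3 and MYL4, or between MYL6 and MYL3.

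By FPKM the atrial light chains were the most abundant cardiac light chains on day 10 in all 3 arms. MYL7 (chromosome 7, 44138864 to 44141332) had an FPKM of 0.24, 0.04 and 1.02 on days 0, 1 and 2. In NP-ctrl cells it then measured 7.01, 378.83, 395.49 and 242.62 on days 3, 5, 7 and 10. In NP-IWP2 cells it measured 5.29, 480.08, 1215.82 and 720.16 on the same days. In passaged cells it measured 12.63, 203.71, 1584.72 and 1867.86. The largest step in FPKM was from day 3 to day 5 in NP-ctrl cells and from day 5 to day 7 in both other arms. Passaged cells had the lowest level of the 3 arms on day 5 and the highest on days 3, 7 and 10. By FPKM MYL7 ranked 15 among protein-coding genes in passaged day 10, 14 in NP-IWP2 day 10 and 54 in NP-ctrl day 10. The ratio of passaged to NP-ctrl was 1.80 on day 3 (exact 95% interval 1.48 to 2.21), 0.538 on day 5 (0.519 to 0.558), 4.01 on day 7 (3.91 to 4.11) and 7.70 on day 10 (7.47 to 7.94). These intervals, and those of all ratios below, cover counting error only. They treat each count as a separate molecule, so PCR copies among the counts would make them too narrow. They leave out the spread between cultures, since each arm and day was measured in a single culture.

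MYL4 (chromosome 17, 47200446 to 47223679) had 0, 0 and 2 counts on days 0, 1 and 2. Its FPKM on days 3, 5, 7 and 10 was 8.09, 27.42, 57.92 and 72.15 in NP-ctrl cells. It was 2.90, 52.11, 251.33 and 230.48 in NP-IWP2 cells and 3.13, 68.77, 437.56 and 459.62 in passaged cells. NP-ctrl cells were highest on day 3 and lowest from day 5 on. Against day 2 the NP-ctrl day 3 level was 133.9-fold higher, with an interval of 36.6 to 1113 because only 2 reads were counted on day 2. The ratio of passaged to NP-ctrl was 0.387 on day 3 (0.291 to 0.509) and 2.51 on day 5 (2.30 to 2.74). It was 7.56 on day 7 (7.13 to 8.02) and 6.37 on day 10 (6.04 to 6.72).

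**Figure D1:**
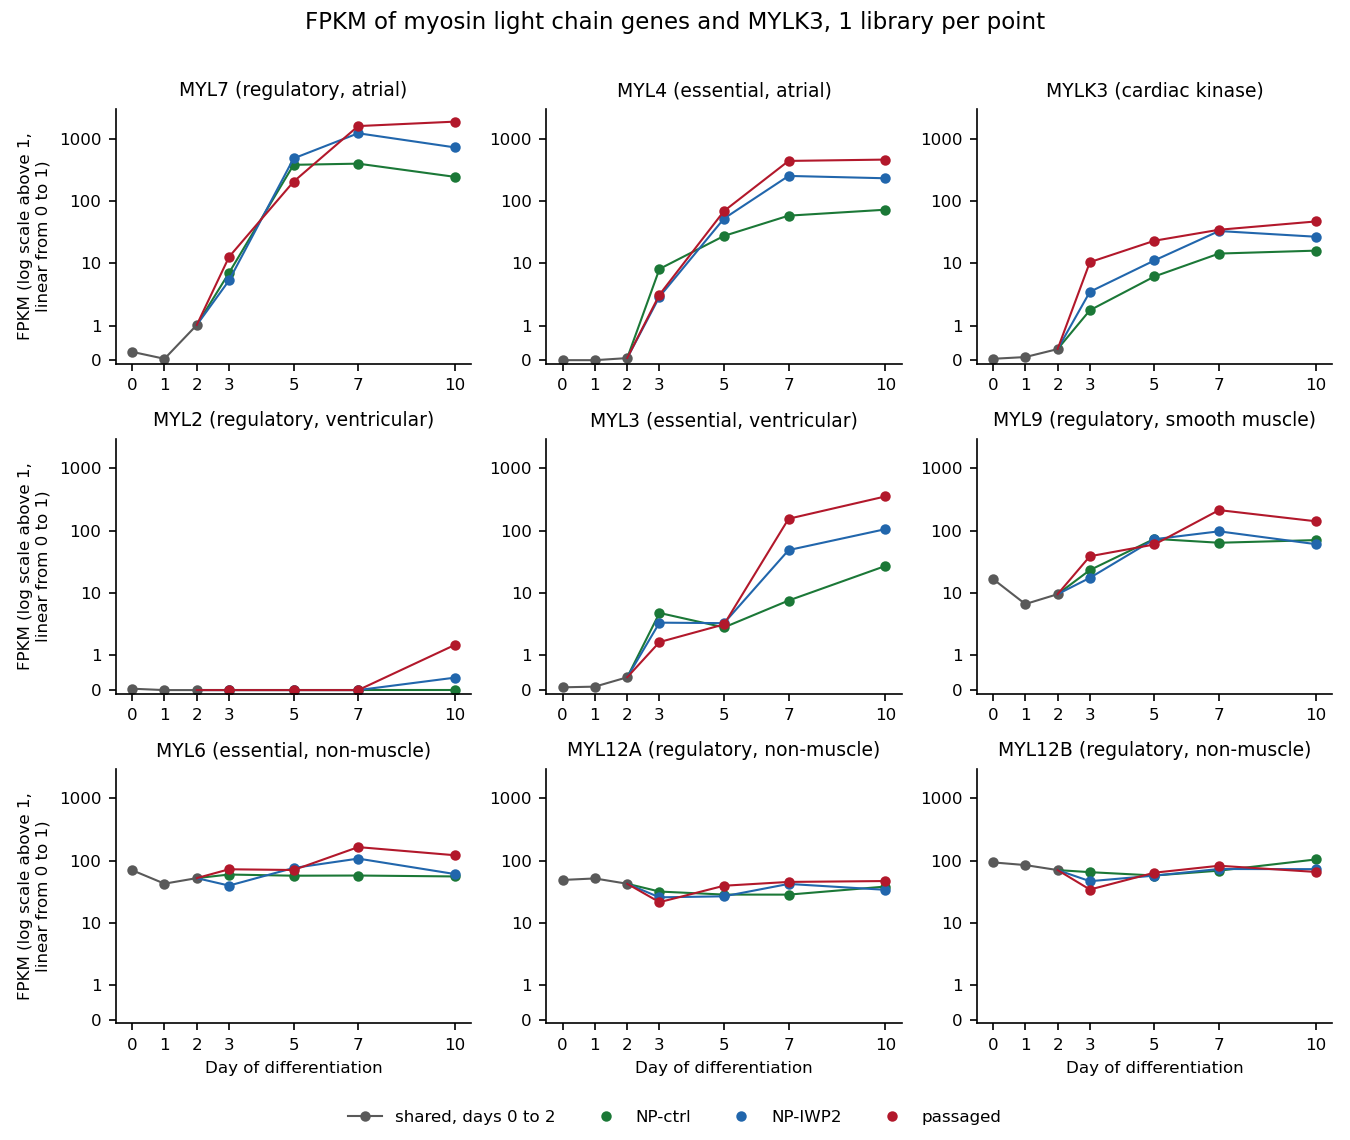
FPKM of the 8 light chain genes and MYLK3 against day of differentiation, with 1 library per point, lines joining the days of an arm, and a vertical axis that is logarithmic above 1 and linear below. MYL7 and MYL4 rise by day 5 in every arm, MYL3 passes 10 only after day 5, MYL2 is above 1 in passaged day 10 alone, and MYL6, MYL12A and MYL12B start high on day 0.

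Of the ventricular light chains, MYL3 was counted as early as MYL4 but rose mainly after day 5, and MYL2 was barely detected. MYL2 (chromosome 12, 110910819 to 110921443) had 1 count on day 0, 8 counts in NP-IWP2 day 10 and 32 counts in passaged day 10, and 0 counts in the other 12 libraries. Its FPKM was 0.36 in NP-IWP2 day 10 and 1.48 in passaged day 10, a ratio of 4.16 (1.88 to 10.5). Against NP-ctrl day 10, with 0 counts set to 3, the ratio was 9.44. No interval was computed for it, so the counting error of the 32 counts is not covered. On day 10 the FPKM of MYL2 was 0.000495 of that of MYL7 in NP-IWP2 cells (0.000214 to 0.000976) and 0.000794 in passaged cells (0.000543 to 0.00112). These intervals overlap, so a difference between the arms in this ratio was not detectable at this depth.

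MYL3 (chromosome 3, 46835111 to 46882172) was at 0.08, 0.10 and 0.37 FPKM on days 0, 1 and 2. On days 3, 5, 7 and 10 it was at 4.81, 2.82, 7.61 and 27.29 in NP-ctrl cells. It was at 3.36, 3.30, 49.03 and 106.28 in NP-IWP2 cells and at 1.64, 3.15, 156.00 and 356.10 in passaged cells. The order of the arms on day 3, with NP-ctrl highest, was the reverse of that on days 7 and 10, and on day 5 the intervals of all 3 ratios between arms included 1. Passaged cells exceeded NP-ctrl cells 20.5-fold on day 7 (18.2 to 23.2) and 13.05-fold on day 10 (12.3 to 13.9). They exceeded NP-IWP2 cells 3.18-fold on day 7 (3.03 to 3.34) and 3.35-fold on day 10 (3.24 to 3.46).

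The deposited MYL3 model overlaps PTH1R, the parathyroid hormone receptor gene, on the opposite strand, and the sources do not state whether counting used the strand. On day 3 PTH1R had 1933 counts in NP-ctrl cells, 1544 in NP-IWP2 cells and 883 in passaged cells, while MYL3 had 219, 127 and 63. The low day 3 level of MYL3 followed the same order of arms as PTH1R, and the part of PTH1R reads in it was not tested. On day 7 MYL3 had 283, 2223 and 6558 counts and PTH1R 1095, 1719 and 1455. On day 10 MYL3 had 1030, 4720 and 15194 counts and PTH1R 1084, 1147 and 1325.

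The ratio of MYL3 to MYL4 was lowest on day 5 in every arm. By FPKM the day 3 ratio was 0.594 (0.490 to 0.721) for NP-ctrl cells, 1.16 (0.851 to 1.59) for NP-IWP2 cells and 0.525 (0.368 to 0.749) for passaged cells. On day 5 it was 0.103 in NP-ctrl cells, 0.0634 in NP-IWP2 cells and 0.0459 in passaged cells. On day 10 it was 0.378 (0.349 to 0.409), 0.461 (0.444 to 0.479) and 0.775 (0.756 to 0.794), and the 3 intervals did not overlap. From day 3 to day 10 the ratio thus went down in NP-ctrl and NP-IWP2 cells and up in passaged cells. The day 3 ratios rest on low MYL3 counts, in which the part of PTH1R reads was not tested. From day 5 to day 10 the ratio rose in all 3 arms. Which of the 2 genes was higher in passaged day 10 depended on the length used, since with the length of the canonical mRNA in place of all exons the ratio was 1.28 (1.25 to 1.32).

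MYLK3 (chromosome 16, 46702282 to 46790407), the kinase gene, separated the arms from the first day after passaging. Its FPKM was 0.04, 0.09 and 0.32 on days 0, 1 and 2. It was 1.76, 6.13, 14.28 and 15.91 in NP-ctrl cells on days 3, 5, 7 and 10, 3.48, 11.09, 32.83 and 26.59 in NP-IWP2 cells, and 10.40, 22.95, 34.41 and 46.78 in passaged cells. The order passaged above NP-IWP2 above NP-ctrl held on all 4 days, with a gap between passaged and NP-IWP2 on day 7 of only 1.05-fold (1.01 to 1.09). Passaged cells exceeded NP-ctrl cells 5.92-fold on day 3 (5.23 to 6.71), 3.74-fold on day 5 (3.49 to 4.01), 2.41-fold on day 7 (2.29 to 2.54) and 2.94-fold on day 10 (2.81 to 3.08). On day 3 the kinase was 2.99-fold higher in passaged than in NP-IWP2 cells (2.70 to 3.31). The summed FPKM of the 10 cardiomyocyte markers on that day was 19.99 in NP-ctrl, 13.13 with IWP2 and 18.92 after passaging. Single markers went both ways within this sum. ACTC1, the cardiac actin gene, was at 8.14 in NP-ctrl and 1.91 in passaged cells, and TNNC1, a troponin C gene, at 3.18 and 9.54. The ratio of MYLK3 to MYL7 FPKM in passaged cells went from 0.823 on day 3 (0.720 to 0.944) to 0.0251 on day 10 (0.0244 to 0.0257).

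**Figure D2:**
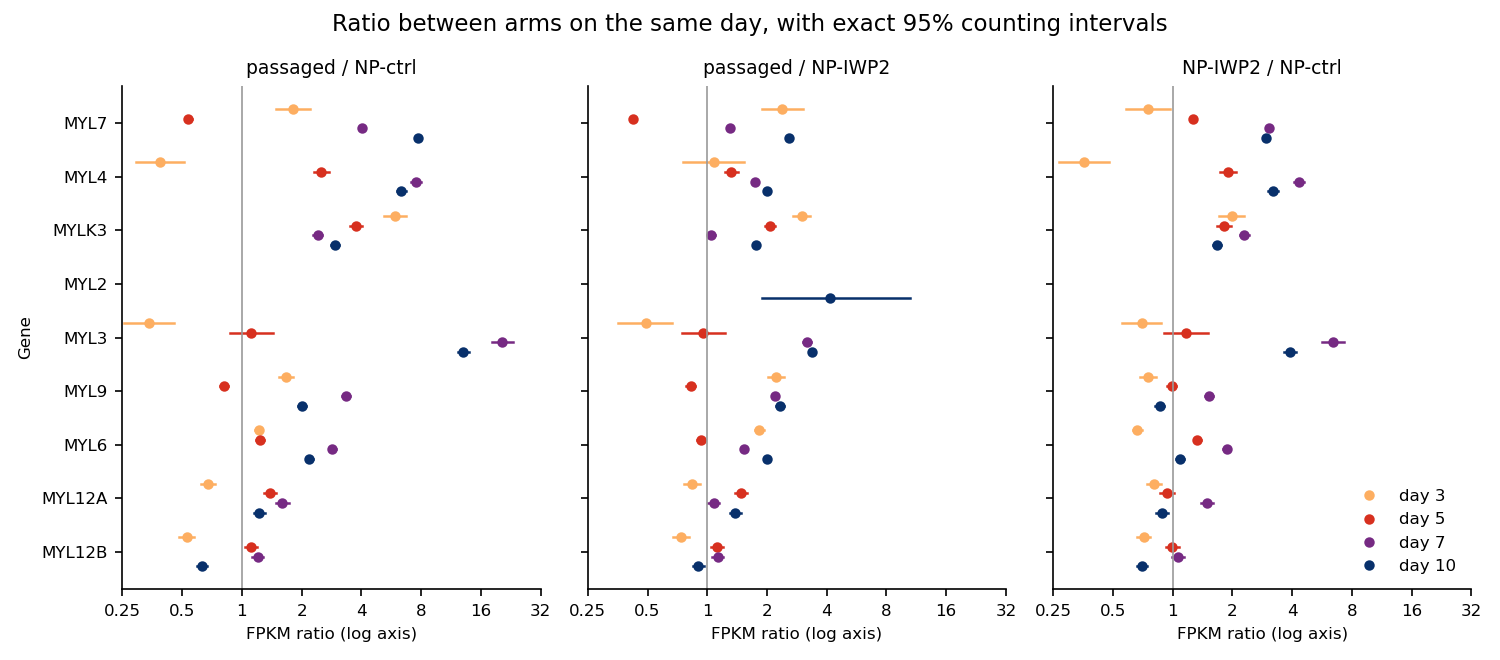
FPKM ratio between arms on the same day for each gene, on a logarithmic axis, with points for ratios and lines for exact 95% counting intervals, and with ratios left out where a library had 3 counts or fewer. All 4 MYLK3 points lie above 1 in each panel, whereas those of MYL7, MYL3 and MYL4 against NP-ctrl lie on both sides of 1.

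The smooth muscle and non-muscle light chains were present from the stem cell stage. MYL9 (chromosome 20, 36541497 to 36551447) had an FPKM of 16.83, 6.68 and 9.62 on days 0, 1 and 2. It was at 23.44, 74.32, 64.29 and 70.92 in NP-ctrl cells on days 3, 5, 7 and 10, 17.60, 73.31, 98.10 and 61.05 in NP-IWP2 cells, and 39.07, 60.36, 214.84 and 142.13 in passaged cells. Passaged cells were highest on days 3, 7 and 10 and lowest on day 5, the same order of days as for MYL7. The ratio of passaged to NP-ctrl was 1.67 on day 3 (1.54 to 1.80), 0.812 on day 5 (0.771 to 0.855), 3.34 on day 7 (3.19 to 3.50) and 2.00 on day 10 (1.92 to 2.10). The summed FPKM of 10 smooth muscle markers was 305.8, 363.8 and 703.4 in the NP-ctrl, the NP-IWP2 and the passaged cells on day 7 and 262.6, 202.9 and 260.1 on day 10. On day 10, 7 of these 10 markers had a higher FPKM in passaged than in NP-ctrl cells, counted without a limit on size. Among them CNN1, the calponin gene, was at 28.33 against 10.87, but ACTA2 was at 73.42 against 68.47 and SMTNL2 at 36.30 against 35.67. MYH11, the smooth muscle myosin heavy chain gene, was at 0.11 against 0.08 and between 0.05 and 0.17 in all 15 libraries. The other 3 of the 10 markers had a lower FPKM, such as CALD1, the caldesmon gene, at 34.47 against 76.31. The part of smooth muscle cells in the MYL9 values was not tested.

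MYL6 (chromosome 12, 56158346 to 56163496) was at 70.38, 42.82 and 52.60 FPKM on days 0, 1 and 2. In NP-ctrl cells it stayed between 55.95 and 60.04 from day 3 to day 10. In NP-IWP2 cells it ranged from 39.90 on day 3 to 108.17 on day 7, and in passaged cells from 70.97 on day 5 to 165.35 on day 7. On day 10 passaged cells were at 122.39, 2.19-fold above NP-ctrl (2.10 to 2.28). The MYL6 model overlaps SMARCC2 on the opposite strand and MYL6B on the same strand, so part of its counts is uncertain.

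MYL12A ranged from 21.62 FPKM in passaged day 3 to 51.96 on day 1, and MYL12B from 34.48 in passaged day 3 to 104.80 in NP-ctrl day 10. Both genes were lowest in passaged cells on day 3, at 0.507 (0.469 to 0.547) and 0.487 (0.450 to 0.527) of their day 2 levels. On day 10 MYL12B was lower in passaged than in NP-ctrl cells, at a ratio of 0.630 (0.593 to 0.671), while MYL12A was at 1.23 (1.15 to 1.31). The sum of the pair does not depend on how shared reads were split between the 2 genes, but it would miss shared reads assigned to none. On day 10 the sum was 0.0299% of all counts in NP-ctrl cells, 0.0231% in NP-IWP2 cells and 0.0258% in passaged cells.

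Within each class of light chain the cardiac genes held a far larger share on day 10 than on day 0. On day 0 the cardiac genes made up 0.177% of the regulatory FPKM and 0.119% of the essential FPKM. On day 10 the cardiac share of the regulatory class was 53.1% in NP-ctrl cells, 81.1% in NP-IWP2 cells and 88.0% in passaged cells, and MYL7 was nearly all of it. The cardiac share of the essential class was 64.0%, 84.7% and 87.0%. On day 5 MYL7 was 70.2%, 75.3% and 55.4% of its class, while MYL3 and MYL4 together were 34.5%, 42.0% and 50.3% of theirs. On day 5 passaged cells were thus lowest of the 3 arms in the regulatory class and highest in the essential class.

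FPKM divides by the length of all exons of a gene, and for MYL6 that length is 4424 bases, 6.25 times its canonical mRNA of 708 bases. For MYL7 it is 1458 bases against 612. With the canonical mRNA length in place of it, the day 10 cardiac share of the essential class fell to 39.1%, 67.1% and 72.4%, and that of the regulatory class was 62.3%, 86.0% and 91.9%. The order of the arms on day 10 was the same on both scales in both classes.

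**Figure D3:**
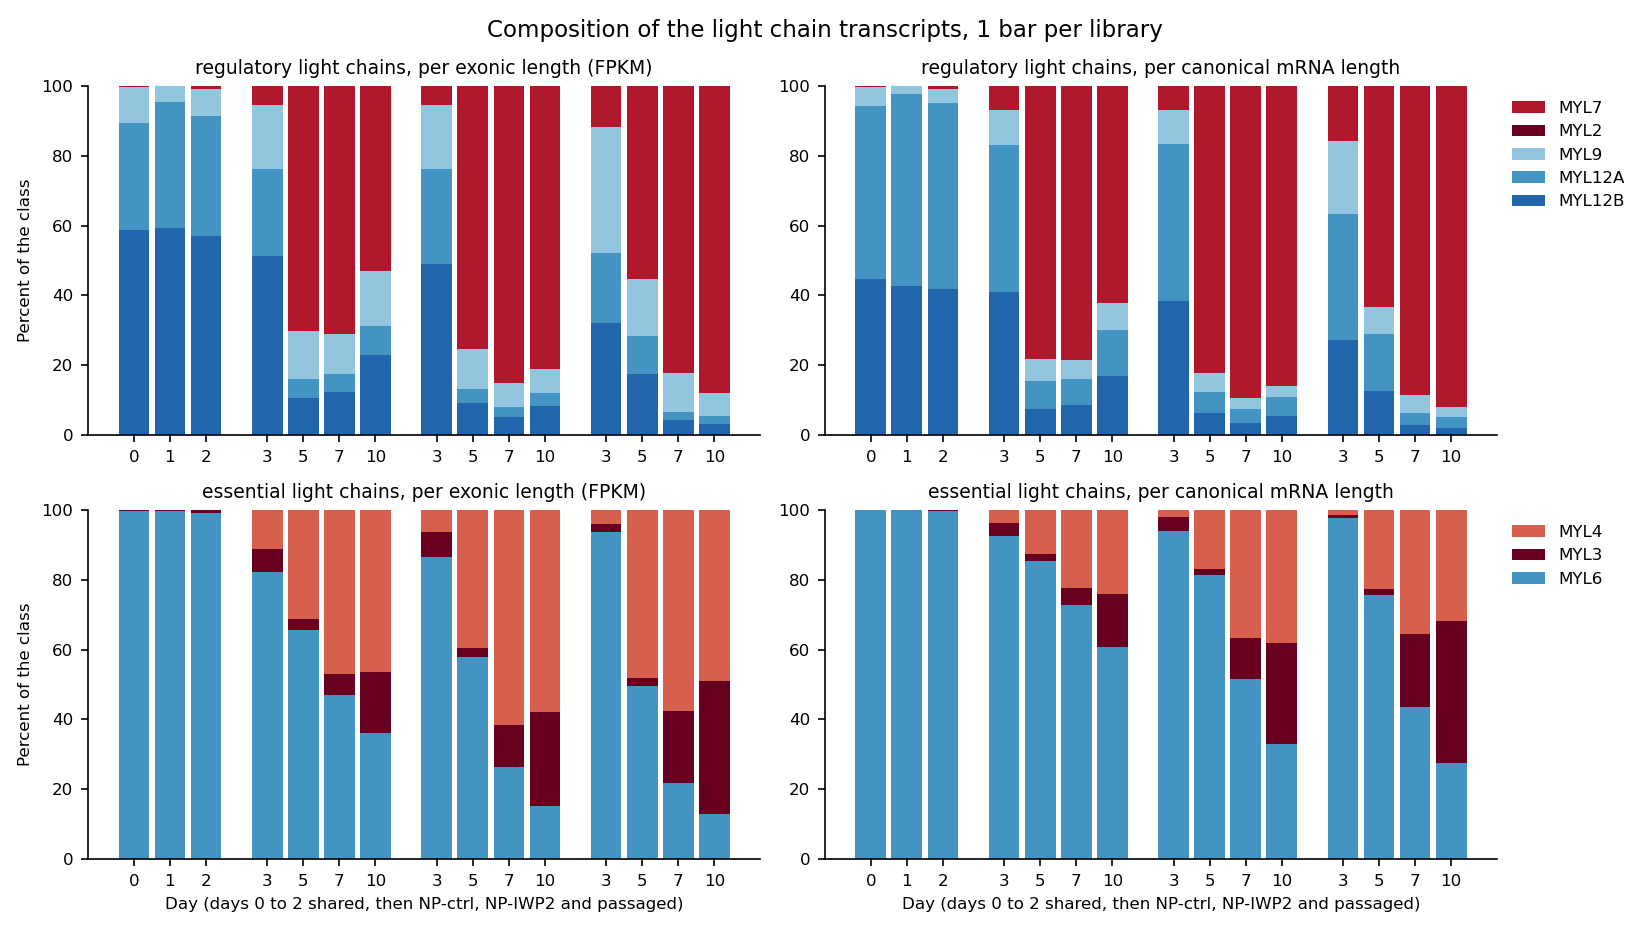
Share of each gene in the regulatory (top) and essential (bottom) light chain transcripts of each library, in percent, per exonic length (left) and per canonical mRNA length (right), with cardiac genes in red and non-muscle genes in blue. The red share on day 10 is lowest in NP-ctrl and highest in passaged cells in all 4 panels.

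Counting the members whose log2(FPKM + 1) differed by at least 1 between single libraries is a rule with no p-value that understates the change of low genes. Between passaged and NP-ctrl cells 3 of 9 differed on day 3 (MYLK3 higher, MYL3 and MYL4 lower), where 8.49% of all genes differed. On day 5 MYL4 and MYLK3 were higher, against 3.74% of all genes that were higher. On day 7 these were 6 genes (MYL7, MYL3, MYL4, MYL6, MYL9 and MYLK3), all higher, against 4.33% of all genes that were higher. On day 10 they were again 6 (MYL2, MYL7, MYL3, MYL4, MYL6 and MYLK3), all higher, against 5.67%. MYL2 passed the filter only through passaged day 10, so its place among the 6 is not independent of the filter. The median member difference on day 10 was 1.31, which is the value of MYL2, and that of all genes was -0.09.

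Between passaged and NP-IWP2 cells 3 members were higher on day 3 (MYL7, MYL9 and MYLK3), where 3.65% of all genes were higher. On day 5 MYL7 alone differed and was lower, at 0.424 of NP-IWP2 (0.410 to 0.440), where 4.02% of all genes were lower. On day 7 MYL3 and MYL9 were higher (2.31% of all genes were higher), and on day 10 MYL7, MYL3 and MYL9 were higher (3.07%). Between NP-IWP2 and NP-ctrl cells MYL4 was lower on day 3 (0.858% of all genes were lower) and no member differed on day 5 (2.97% of all genes differed). MYL7, MYL3, MYL4 and MYLK3 were higher on day 7 (2.99% of all genes were higher), and MYL7, MYL3 and MYL4 on day 10 (3.71%). The NP-ctrl libraries enter both comparisons against NP-ctrl.

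The arms were tested over days with edgeR's quasi-likelihood test on the counts of the 12 libraries from day 3 on, with a term for day and Benjamini-Hochberg adjustment over 21206 genes. The test measures how far the arm difference varied among the days of 1 differentiation, and not among independent differentiations. Between passaged and NP-ctrl cells 4.4% of genes passed at an adjusted p under 0.05, and 1 of 9 members did. This was MYLK3, higher by 1.895 on the log2 scale (SE 0.215, adjusted p = 0.00105), and higher on 4 of 4 days. It passed in all 10 alternative fits, with changes between 1.63 and 2.03. MYL7 differed by 1.35 (SE 0.553, edgeR adjusted p = 0.208), MYL4 by 1.40 (SE 0.656, edgeR adjusted p = 0.274) and MYL3 by 1.82 (SE 0.889, edgeR adjusted p = 0.299), and did not pass. Their arm difference turned sign between days. Without day 3 MYL4 was higher by 2.40 (edgeR adjusted p = 0.00167), MYL3 by 2.99 (edgeR adjusted p = 0.0265) and MYL6 by 1.10 (edgeR adjusted p = 0.03). In that fit 4 members passed, but calls rose in general, with 2373 of 21206 genes passing against 933 with all days. Without the filter on low genes 6 members passed, namely MYLK3, MYL3, MYL4, MYL6, MYL7 and MYL9, and 2571 of 41457 genes passed.

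Between passaged and NP-IWP2 cells 1.33% of genes passed and no member did with edgeR, while 3 members had an unadjusted p under 0.05 and DESeq2 called 1, MYLK3. MYLK3 differed by 0.96 (SE 0.211, edgeR adjusted p = 0.0567), with DESeq2 giving 0.96 at an adjusted p of 0.00184. MYL9 differed by 0.94 (SE 0.306, edgeR adjusted p = 0.205) and MYL6 by 0.67 (SE 0.281, edgeR adjusted p = 0.339). Between NP-IWP2 and NP-ctrl cells 0.0189% of genes passed and no member did with edgeR, while 1 member had an unadjusted p under 0.05. That member was MYLK3, with a difference of 0.94 (SE 0.209, edgeR adjusted p = 0.490), and DESeq2 called it at an adjusted p of 0.0275. limma called no member in these last 2 comparisons.

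From day 3 to day 10, with the arms as the repetition, 17.9% of genes passed as higher and 7 of 9 members were higher. The 3 arms are different treatments of 1 differentiation that shared days 0 to 2. The adjusted p therefore measures how far the change varied among treatments, and not among independent differentiations. MYL7 rose by 6.66 (SE 0.755, adjusted p = 0.000105), MYL4 by 5.26 (SE 0.828, adjusted p = 0.000745), MYL3 by 4.86 (SE 1.04, adjusted p = 0.00416) and MYLK3 by 2.82 (SE 0.256, adjusted p = 2.97e-05). Among the smooth muscle and non-muscle chains MYL9 rose by 1.84 (SE 0.357, adjusted p = 0.00244) and MYL12B by 0.81 (SE 0.240, adjusted p = 0.0220). MYL2 was called at an adjusted p of 0.0495, with counts in 2 of the 12 libraries, and passed in 2 of 8 alternative fits. It entered the test only through passaged day 10, so its place among the 7 is not independent of the filter. MYL12A (0.64, SE 0.256, adjusted p = 0.0736) and MYL6 (0.48, SE 0.323, adjusted p = 0.289) did not pass. Without the NP-IWP2 libraries 3 members passed as higher, MYL7, MYL4 and MYLK3, where 1156 of 21206 genes passed as higher.

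**Figure D4:**
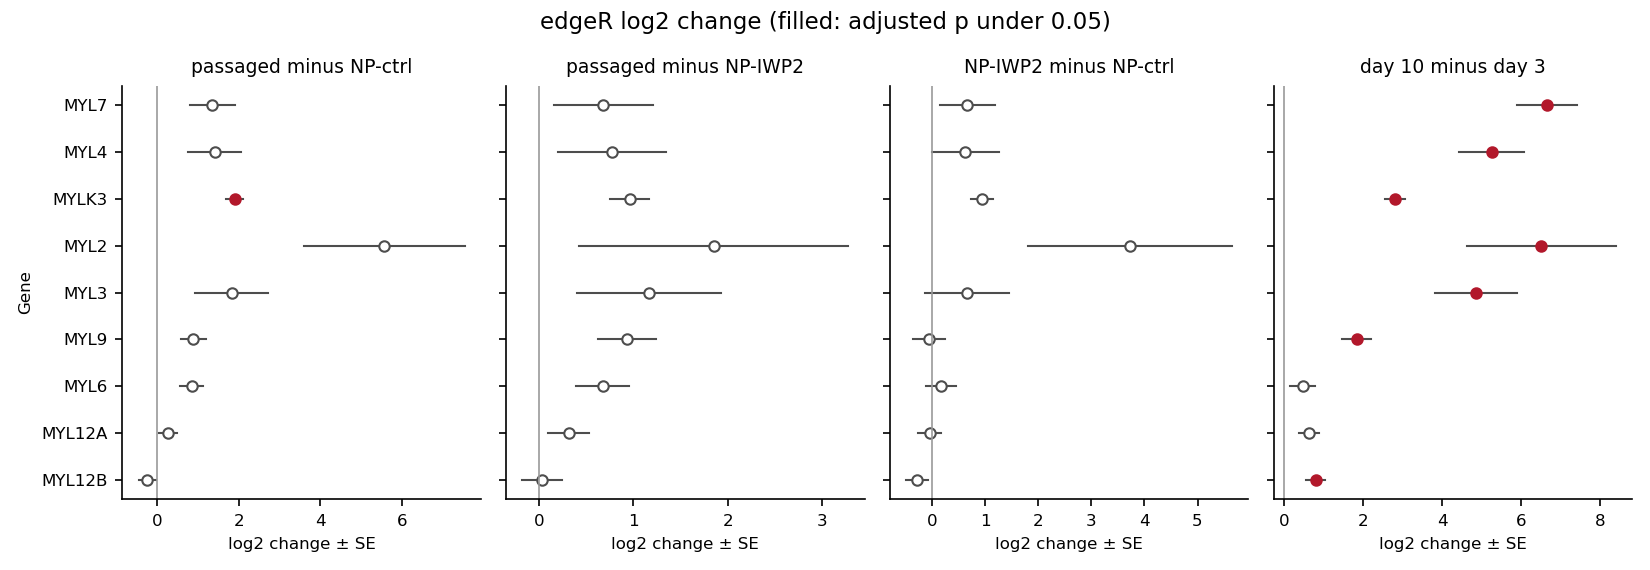
edgeR log2 changes of the 9 genes with their standard errors for the 3 arm differences and for day 10 against day 3, with filled points at an adjusted p under 0.05. MYLK3 is the only filled point among the arm differences, and 7 of 9 points are filled for the day difference, while the size of the MYL2 changes depends on how libraries at 0 counts are handled in the fit.

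Other genes of the same machinery were taken from lists. Of 7 myosin heavy chain genes 6 were tested, and MYH7, the slow and ventricular heavy chain, was higher in passaged than in NP-ctrl cells by 6.59 (SE 0.699, edgeR adjusted p = 0.000877) and than in NP-IWP2 cells by 4.61 (SE 0.609, edgeR adjusted p = 0.00612). It was the only 1 of the 6 to pass in these comparisons, where 4.4% and 1.33% of all genes passed. On day 10 MYH7 was at 4.26, 17.26 and 208.89 FPKM in the NP-ctrl, the NP-IWP2 and the passaged cells, and MYH6, the atrial heavy chain, at 122.89, 445.35 and 1012.61. MYH6 and MYH7 are related in sequence, and the split of reads between them was not tested. On day 7 NP-IWP2 cells had 74484 MYH6 counts and 562 MYH7 counts, and passaged cells had 84960 and 21744. In the same passaged day 10 library MYL2, the regulatory chain of ventricular myosin, was at 1.48 FPKM.

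Of 22 genes that set light chain phosphorylation 20 were tested. Among them PPP1R12B, a targeting subunit of myosin phosphatase found in heart and smooth muscle, was higher in passaged than in NP-ctrl cells by 1.64 (SE 0.331, edgeR adjusted p = 0.0205). No other gene of the list passed in an arm difference. This 1 of 20 is close to the 4.4% of all genes that passed between passaged and NP-ctrl cells. PPP1R12B was at 5.19, 9.84 and 13.69 FPKM on day 10 in the NP-ctrl, the NP-IWP2 and the passaged cells. MYLK, the smooth muscle kinase, stayed between 0.29 and 1.45 FPKM in all 15 libraries. From day 3 to day 10, 5 of the 20 genes rose and 4 fell, close to the 17.9% of all genes that rose and the 17.1% that fell. Of 5 other light chain genes 3 were tested, none had an unadjusted edgeR p under 0.05 in an arm difference, and MYL6B fell by 1.15 from day 3 to day 10 (SE 0.284, edgeR adjusted p = 0.00909).

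The cardiomyocyte marker sum did not follow the order of the light chains on every day. Of 10 such markers, 4 were higher in passaged than in NP-ctrl cells in the edgeR test over days, where 1.64% of all genes were higher. In the same comparison 4 of 8 fibroblast markers, 3 of 5 epicardial markers and 1 of the 9 smooth muscle markers tested were lower, where 2.76% of all genes were lower. On day 5 the marker sum was 258.4, 364.5 and 561.1 FPKM in the order NP-ctrl, NP-IWP2, passaged, so that it was highest in passaged cells while MYL7 was lowest there.

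Per unit of that sum and in the same order of arms, MYL7 was at 1.466, 1.317 and 0.363 on day 5. It was at 1.04, 0.733 and 0.421 on day 7, and at 0.614, 0.583 and 0.553 on day 10. MYL4 per unit of the sum was at 0.183, 0.187 and 0.136 on day 10, and MYL3 at 0.0691, 0.0860 and 0.106. MYLK3 per unit of the sum was highest in passaged cells on days 3 and 5 and lowest there on days 7 and 10, at 0.0403, 0.0215 and 0.0139 on day 10. These orders depended on the marker taken, since ACTC1, the cardiac actin gene, held 2147.01 of the summed 3377 FPKM in passaged day 10. Per unit of TNNT2, the cardiac troponin T gene, MYL7 on day 10 was at 11.1, 16.9 and 33.7 and MYLK3 at 0.729, 0.622 and 0.843, with passaged cells highest for both. Beside the 7.70-fold difference in MYL7 between passaged and NP-ctrl cells on day 10, the marker sum differed 8.55-fold, and its part in the MYL7 difference was not tested.

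Skeletal muscle factors were near 0: of 9 skeletal markers 6 were at 0 in passaged day 10, and CKM, the muscle creatine kinase that heart also makes, held 189.17 of their summed 190.2 FPKM. The genes listed as atrial and ventricular factors did not separate the arms in 1 direction. Of 5 genes listed as ventricular factors, 2 (MYH7 and IRX3) were higher and 1 (HAND1) lower in passaged than in NP-ctrl cells. In that comparison 1.64% of all genes were higher and 2.76% lower. Against NP-IWP2 cells 1 of the 5 (MYH7) was higher and 1 (HAND1) lower, where 88 of 21206 genes were higher and 194 lower. Of 5 genes listed as atrial factors 1, TBX5, was lower in passaged than in NP-IWP2 cells, by 2.33 on the log2 scale. In that comparison 0.915% of all genes were lower. TBX5 is not confined to the atria, so its level does not mark atrial identity alone.

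The genes nearest in pattern to each member were taken by Pearson correlation of log2(FPKM + 1) over the 15 libraries, among 13874 protein-coding genes. The libraries share cultures and days, so these are descriptions. MYL7 was nearest to TNNI1, the slow troponin I of the early heart (r = 0.991), MYL4 to PYGM, the muscle glycogen phosphorylase (r = 0.986), and MYL3 to CKM (r = 0.982). MYLK3 was nearest to FZD4, a WNT receptor gene (r = 0.983), and MYL9 to JPH2, a junctional membrane protein of muscle (r = 0.956), with MYL7 close behind (r = 0.953). MYL2, which rests on 2 libraries, was nearest to KLHL38 (r = 0.992). MYL6 was nearest to HSPB2 (r = 0.916), MYL12A to ATP6V1E1 (r = 0.903) and MYL12B to STAT5A (r = 0.817). Among the members, MYL7 and MYL4 had r = 0.974 and MYL12A and MYL12B r = 0.790, while MYL7 and MYL12A had r = -0.07.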

How the data were processed

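RNA of H1 cells was sequenced in 15 libraries, and each label named 1 arm and day. The authors trimmed reads with cutadapt (version 1.9.1), used HISAT2 (version 2.0.1) for alignment to hg38 and HTSeq (version 0.6.1) for counting, per the submitters' processing notes. Whether counting used the strand is not given in the sources used here. The library kit named is a long-read kit while these are short-read tools, so the kind of read counted is unclear and values per length carry that doubt. The deposited table gives raw counts and FPKM for each library, and FPKM recomputed by the exonic length and library total in the same table differed by at most 0.005 from those deposited. Of the genes, 60463 were matched to GENCODE release 44, 93.8% with identical coordinates, so coordinates are on GRCh38.

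Counts were tested with edgeR (version 4.0.16, R 4.3.3, TMM) with arm and day as terms over 12 libraries, with DESeq2 (version 1.42.0) and limma (version 3.58.1, log2(FPKM + 1)) as alternatives beside other filters, scalings and left-out days or arms, and each tool was tested on simulated data with known changes. The pseudocount was 1, the floor was 3 counts, and ratios carry exact 95% Clopper-Pearson intervals for counting error. Total counts of 13254723 to 20250115 set the precision. All 9 members were named. The other genes named were the 3 nearest patterns of each member and genes of the lists, and only some of these were printed. TNNT2, TNNC1, ACTC1, CNN1, CALD1, ACTA2, SMTNL2, MYH11, MYH6, MYLK, TBX5, IRX3 and HAND1 were picked out after their values were seen. So were the overlapping genes PTH1R, SMARCC2 and MYL6B, and the part of CKM in its list. The members and lists were chosen with earlier results of these data known. RefSeq promoters were matched by symbol for MYL7, MYL3, MYL6, MYL12A, MYL12B and MYLK3, which is 6 of 9 members.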

Additional observations from a re-analysis of the deposited data

Results flagged for a closer look

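For 4 genes the difference between passaged and NP-ctrl cells lay on opposite sides of 1 on different days, beyond counting error, and reached at least 1 in log2(FPKM + 1) on some day. The FPKM ratio of MYL7 was 0.538 on day 5 and 7.70 on day 10, and that of MYL9 was 0.812 on day 5 and 3.34 on day 7. The ratio of MYL3 was 0.342 on day 3 and 20.5 on day 7, and that of MYL4 was 0.387 on day 3 and 7.56 on day 7. MYL12A (0.675 on day 3 and 1.60 on day 7) and MYL12B (0.526 and 1.199 on the same days) also crossed 1 beyond counting error, but never reached that size. Smaller crossings of this kind in the other comparisons are not listed. Against NP-IWP2 the ratio in passaged cells was 0.424 on day 5 and 2.59 on day 10 for MYL7, 0.489 on day 3 and 3.35 on day 10 for MYL3, and 0.823 on day 5 and 2.33 on day 10 for MYL9. Between NP-IWP2 and NP-ctrl cells the ratio was 0.755 on day 3 and 3.07 on day 7 for MYL7, 0.698 and 6.44 for MYL3, and 0.359 and 4.34 for MYL4 on the same days. Whether these differences between days exceed the spread between cultures was not tested, since each arm and day had 1 library.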

How the results depend on the processing

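No analysis paired by replicate number was possible because the labels give none, while the arm fits already compare the arms within days. The numbers of genes called depended on the processing. For passaged against NP-ctrl, 933 genes passed with edgeR, 2150 with DESeq2, 163 with limma, 2571 without the filter, 109 with only the 2 arms compared, and between 133 (without day 7) and 2373 (without day 3) when 1 day was left out, with 323 without day 10 and 283 without day 5. The members called were 1 in the fit reported, 2 with DESeq2 (MYLK3 and MYL6), 6 without the filter, and 1 to 4 when 1 day was left out. For passaged against NP-IWP2, 282 genes passed, 892 with DESeq2, 6 with limma, 1368 without the filter, 163 with only the compared arms, and 13 (without day 7) to 675 (without day 3) when 1 day was left out, with 156 without day 10 and 51 without day 5. The members called were 0, 1 with DESeq2 and 3 without the filter (MYLK3, MYL3 and MYL9). For NP-IWP2 against NP-ctrl, 4 genes passed, 59 with DESeq2, 0 with limma, 372 without the filter, 277 with only the compared arms, and 0 to 35 (without day 3) when 1 day was left out. The members called were 0, and 1 (MYLK3) with DESeq2, without the filter or with only the compared arms. For day 10 against day 3, 7423 genes passed and 2235 to 7262 when 1 arm was left out. The 7 members called became 3 without NP-IWP2, 6 without passaged and 7 without NP-ctrl, where MYL12A entered and MYL2 dropped out.

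Signs of small changes turned as follows, and each turned value had an adjusted p over 0.8. NP-IWP2 minus NP-ctrl, with 1 day left out, ran from -0.0544 (without day 7) to 0.486 for MYL6, from -0.241 to 0.106 (without day 3) for MYL9 and from -0.248 to 0.114 (without day 3) for MYL12A. Passaged minus NP-IWP2 for MYL12B ran from -0.0663 (without day 7) to 0.155, with -0.0212 without day 5, and was -0.0444 without TMM and -0.0637 with limma. Passaged minus NP-ctrl for MYL12B ran from -0.463 to 0.00666 (without day 3). MYL2 has no value without day 10, where it has 0 counts.

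Single-library counts of members changed by at least 1 became 5 in place of 3 for passaged against NP-ctrl on day 3 with TPM, 2 in place of 1 for passaged against NP-IWP2 on day 5 with a pseudocount of 0.1 or with TPM, and 5 in place of 3 on day 10 with a pseudocount of 0.1 or with TMM-scaled FPKM. TPM moved the median of all genes by 0.28 on day 3 and by -0.38 on day 10 between passaged and NP-ctrl.

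As shares of counts, the cardiac share on day 10, in the order NP-ctrl, NP-IWP2, passaged, was 41.5%, 72.3% and 80.6% for regulatory chains and 44.01%, 71.4% and 76.4% for essential chains. By canonical mRNA length, an alternative chosen after seeing the data, it was 62.3%, 86.0% and 91.9%, and 39.1%, 67.1% and 72.4%. The MYL3 to MYL4 ratio became 0.648, 0.790 and 1.33 by counts and 0.626, 0.764 and 1.28 by mRNA length. Depth limits MYL2, whose largest value rests on 32 counts. By Spearman's rho the gene nearest to MYL2, KLHL38, ranked 205, and the nearest genes of the other 8 members ranked from 2 (CKM for MYL3) to 32 (STAT5A for MYL12B).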
